A study of Mus musculus with 12 samples.

Results

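Zinc finger protein genes whose mouse symbol is Zfp followed by a number form one of the largest groups of genes for DNA-binding proteins, and 271 of them were followed here through cisplatin treatment of pancreatic cancer cells. The members were chosen by their footprints: they were all genes with such a symbol, Zfp36 left out, that had at least 1 read in each of the 6 ribosome profiling libraries. They were 271 of the 341 numbered Zfp genes with a read in any library, among 15803 transcripts in all. The choice used only whether a footprint was present in every library, a condition that 10817 transcripts met. It did not use RNA-seq. A gene that lost all footprints in 1 library could not become a member, so footprint results are not independent of the choice.

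Most of these genes code for proteins with arrays of C2H2 zinc fingers, small domains that hold a zinc ion and read a short stretch of DNA. Many carry a KRAB domain as well, which recruits Trim28 and with it the enzymes that make repressive chromatin, often over transposable elements. Others bind RNA or act on ribosomes, and the shared symbol is a name rather than a proof of shared sequence. A large share of the genes lie next to one another in clusters, and their mRNAs and proteins are typically scarce.

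KPC cells are a line from a mouse pancreatic ductal adenocarcinoma (PDAC) in which Pdx1-Cre, active in the pancreas, switches on engineered alleles that include Trp53 LSL-R172H, so the PBS controls carry them too. The cells received PBS, 20 μM Cis for 6 h or 20 μM Cis for 21 h, with 2 libraries per group for ribosome profiling and 2 for RNA-seq, 12 in all. Ribosome profiling sequences the mRNA fragments that ribosomes shield from RNase I (footprints), RNA-seq measures the mRNA, and the ratio of both is the translational efficiency (TE). The labels call the controls untreated and do not give their duration, both time points shared the same PBS libraries, and nothing states that the libraries of a group came from separate cultures, so a p-value measures only the spread between these samples.

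Footprint libraries held 3375480 to 5204127 reads. RNA-seq libraries held 1985344 to 2901692, of which Lars2, Tmem38b and Mettl26 took 51.8% to 56.6%, leaving 862476 to 1341584. All 8 ductal epithelial markers had reads, and their summed footprint level was 9113 to 9795 RPKM with PBS, 9313 to 9372 at 6 h and 6728 to 6861 at 21 h. Krt8 (4819 and 4679 with PBS), Krt19 (3082 and 2683) and Krt18 (1720 and 1570) made up most of it. Epcam and Muc1 were at most 1.83 and 0.711 RPKM in any library. From PBS to 21 h footprints of Krt7, Krt8, Krt19 and Cdh1 were lower. Those of Krt18 overlapped with PBS, and those of Sox9 went from 13.0 and 11.1 to 30.9 and 22.8. RPKM is the deposited read number over the length of the transcript or coding sequence and the total of the library. The summed footprints of 7 fibroblast markers were at most 9.72 RPKM in any library, those of 6 leukocyte markers at most 9.68 and those of 4 endothelial markers at most 0.666. The leukocyte sum was 1.87 to 2.35 RPKM with PBS and 3.57 to 9.68 at 21 h, mostly from Cd68 and Lyz2. Cd68 had 1 and 3 RNA-seq reads with PBS, 0 and 0 at 6 h and 5 and 9 at 21 h. Its RNA was called higher at 21 h than with PBS (1.52 on the log2 scale, adjusted p = 0.0299 in limma, by the test described below). Lyz2 was at 0 in all RNA-seq libraries. Ptprc was at most 0.229 RPKM in footprints and at 0 in all RNA-seq libraries. The part of the ductal and leukocyte markers in the results below was not tested.

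Membership turned on single reads at its edge. Zfp931 was inside with 2, 2, 1, 2, 2 and 1 footprints in the libraries of PBS, 6 h and 21 h, in that order with 2 of each. Zfp202 was outside with 11, 4, 11, 10, 9 and 0. Of the numbered genes left out, 15 had footprints in 0 of the 6 libraries, 12 in 1, 18 in 2, 7 in 3, 6 in 4 and 12 in 5, and adding all of them to the totals moved the share of reads described below by little (3846 against 3833 reads per 1000000 of the library in the first PBS library).

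The Zfp genes were weakly expressed as a class. Their median footprint level was 3.89 and 3.67 RPKM in the PBS libraries, where the median of all transcripts listed in the 6 libraries was 16.5 and 15.9. In RNA-seq it was 1.45 and 1.63 RPKM with PBS, against 5.32 and 5.43. Between 6 and 14 of the 271 members were without a read in any given RNA-seq library, at a median of 11 to 17 reads per member. At rest the ratio of footprints to RNA, both per length, had a median of 2.43 over the 162 members with at least 20 reads in each assay, and 3.41 over all 8982 such transcripts. This limit cuts the 2 sets differently. The median member had 12 and 15 RNA-seq reads in the PBS libraries, and the median listed transcript 40 and 49. The part of the limit in the difference of the medians was not tested. Lars2, Tmem38b and Mettl26, with 54.5% and 53.8% of the PBS RNA-seq reads, stayed in the totals of the RNA-seq RPKM. The ratios here and below are thus higher than without them, and serve only to compare genes.

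The 6 genes of highest RNA were led by Zfp706, a short zinc finger protein, which was highest at 50.2 and 44.9 RPKM in the PBS libraries. Zfp106, which binds RNA, followed with 36.6 and 41.2, and Zfp207, a mitotic spindle protein, with 30.9 and 32.9. The ranges of these 3 did not overlap. Zfp91, a ubiquitin ligase (21.9 and 23.7), Zfp395 (21.7 and 21.4) and Zfp664 (21.1 and 21.1) were next, all close to one another. The footprint levels did not keep this order. Zfp664 had 11.0 and 12.6 RPKM of footprints for its RNA and a ratio of 0.56, whereas Zfp207 had 138 and 124 and a ratio of 4.11.

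The share of ribosome footprints on the Zfp genes was higher at each later time in Cis, as a description with no test. It was 3833 and 3857 reads per 1000000 of the library with PBS, 4138 and 4246 at 6 h, and 5320 and 5132 at 21 h. Each group lay above the one before it with no overlap. Without the 6 genes of highest RNA the values were 3251 and 3292, then 3563 and 3655, then 4769 and 4595, in the same order. In RNA-seq, with the 3 abundant transcripts out of the total, the share was 7134 and 7451 with PBS and 7298 and 7525 at 6 h, ranges that overlap, and 8599 and 8553 at 21 h, above both. These are shares of each library, so a change in the total RNA or translation of a cell is not seen in them, and in bulk samples more RNA per cell and more cells that hold it cannot be told apart.

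**Figure D1:**
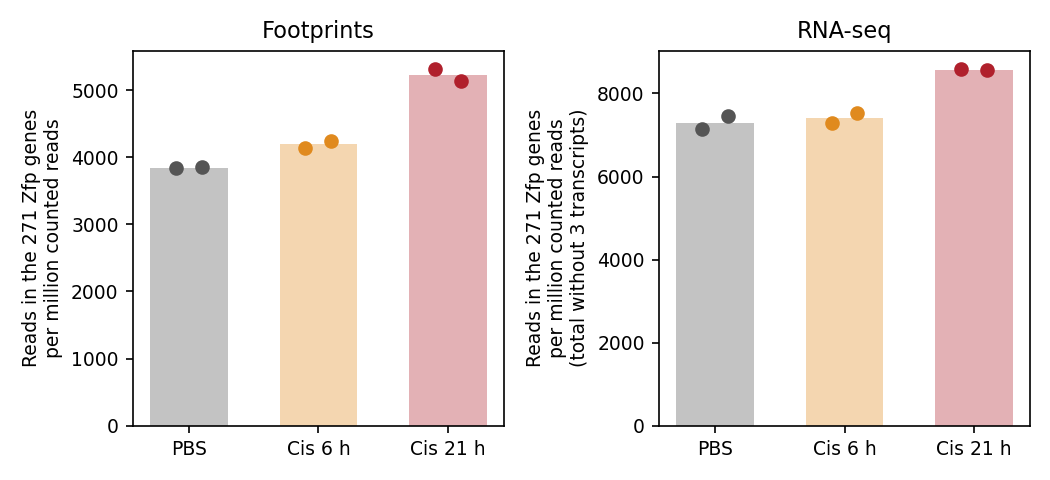
Reads per 1000000 in the 271 Zfp genes, for footprints (left) and for RNA-seq with 3 abundant transcripts left out of the total (right). Points are libraries and bars are the mean of 2. The footprint points climb from 3833 and 3857 with PBS to 5320 and 5132 at 21 h, and the RNA-seq points stand apart from PBS at 21 h only.

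After 6 h of Cis no single Zfp gene passed the test. Differences were tested with limma on log2(RPKM + 0.5) over all transcripts whose scaled RPKM averaged 1 or more, with Benjamini-Hochberg adjustment over all of them and a threshold of 0.05, and all changes below are on this log2 scale, which understates the change of low genes. For footprints, 243 members were tested and 0 were higher and 0 lower, where the share of all 10390 transcripts was 1.05% higher and 0.991% lower. At an unadjusted p under 0.05, 38 members were higher (10.3% of all transcripts were) and 11 lower (11.0%). The treated libraries lay above both PBS libraries for 89 members (25.7% of all transcripts) and below them for 34 (28.6%). The median change was 0.15, against -0.01 over all transcripts. Voom, a limma fit to the recovered reads, called 8 members higher and 7 lower at 6 h, beside 454 and 822 of all 10390 transcripts. The absence of calls in limma also depended on the 21 h libraries, which enter the shared estimate of the spread.

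The members nearest to the threshold at 6 h were Zfp617, Zfp346 and Zfp24, chosen after their values were seen. Footprints of Zfp346, which binds double-stranded RNA, were at 9.54 and 8.79 RPKM with PBS and at 16.3 and 16.3 at 6 h. The change was 0.79 ± 0.17 (SE, adjusted p = 0.0552 in limma). Zfp617 changed by 0.66 ± 0.14 (adjusted p = 0.0518 in limma) and Zfp24 by 0.50 ± 0.11 (adjusted p = 0.0595 in limma). In RNA-seq at 6 h, 177 members were tested and 0 were called in either direction, as for all 9459 transcripts (0.0%). At an unadjusted p under 0.05, 5 members were higher (5.67% of all transcripts) and 6 lower (5.81%). Voom called 0 higher and 1 lower, beside 56 and 172 of all 9459 transcripts.

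After 21 h footprints on Zfp genes rose widely. Of the 243 members tested, 86 were higher and 10 lower, or 35.4% and 4.12%, while over all transcripts 18.9% were higher and 20.2% lower. Both 21 h libraries lay above both PBS libraries for 154 members, where 35.4% of all transcripts did so, and below them for 29, where 35.0% did. The median change was 0.50, against 0.01 over all transcripts, and 195 members lay above 0. Among the 86 the median rise was 0.92, and 37 rose by more than 1, beside 459 of all 10390 transcripts. The count of risers was smaller without any one of the 4 libraries compared (median change 0.49 to 0.55), as was that over all transcripts. The count of 10 moved as well. None of the numbered Zfp genes outside the members passed the level filter in footprints, so testing all 341 could not change these counts. The 28 members under the level filter had a median change of 0.23, with 16 above 0 and 0 called, in a fit without the filter.

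**Figure D2:**
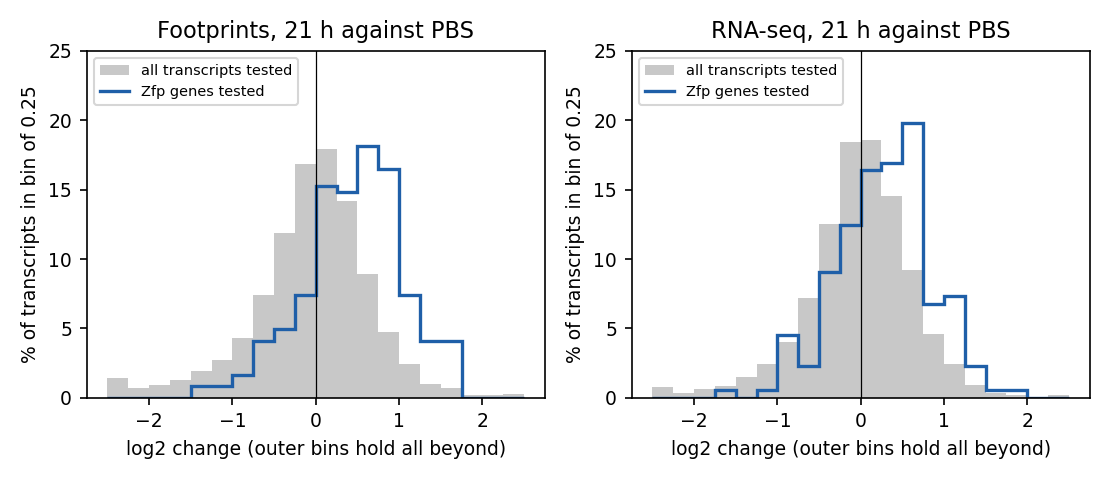
Share of transcripts by their change from PBS to 21 h of Cis in bins of 0.25 on the log2 scale, for the Zfp genes tested (line) and for all transcripts tested (grey), in footprints (left) and RNA-seq (right). The line stands to the right of the grey area, with medians of 0.50 against 0.01 for footprints and 0.33 against 0.02 for RNA-seq.

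The 5 members with the largest called rise in footprints were Zfp599, Zfp941, Zfp39, Zfp707 and Zfp689. Zfp707 was the most abundant of them, with 13.3 and 10.4 RPKM with PBS, 15.2 and 15.4 at 6 h and 40.5 and 36.8 at 21 h. It rose by 1.63 ± 0.15 (SE, adjusted p = 0.00013 in limma). Most of this rise came after 6 h, since the 21 h libraries stood far above those at 6 h.

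Zfp39 had 2.50 and 2.59 RPKM of footprints with PBS, 3.56 and 4.95 at 6 h and 8.56 and 10.1 at 21 h, a rise of 1.65 ± 0.24 (adjusted p = 0.000978 in limma). Zfp599 had 1.29 and 2.35 with PBS, 4.54 and 3.96 at 6 h and 5.94 and 8.19 at 21 h, a rise of 1.70 ± 0.30 (adjusted p = 0.00269 in limma). For both genes the 3 groups followed each other without overlap. Zfp941 and Zfp689 rested on few reads. Zfp941 had 2 and 12 footprints with PBS and 27 and 19 at 21 h, and Zfp689 had 4 and 10 against 21 and 21. Their rises of 1.68 ± 0.48 (adjusted p = 0.0224 in limma) and 1.62 ± 0.43 (adjusted p = 0.0162 in limma) were 0.99 and 1.14 without the first PBS library, and no longer past the threshold. Zfp941 also lost the call without the first 21 h library (1.50) and Zfp689 without the second (1.59).

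The 10 members that lost footprints at 21 h included several large genes with known partners. Zfp609, which works with Nipbl and the Integrator complex, went from 9.79 and 13.0 RPKM with PBS through 6.64 and 7.48 at 6 h to 3.78 and 4.19 at 21 h. It fell by 1.43 ± 0.21 on the log2 scale (adjusted p = 0.00118 in limma). Zfp827, known from telomere maintenance, went from 7.14 and 6.69 through 4.75 and 4.70 to 2.96 and 2.84, a fall of -1.16 ± 0.21 (adjusted p = 0.0028 in limma). Both declined in steps, with each group below the one before.

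Zfp277, a partner of the ribosomal protein Rps2, had 25.9 and 19.6 RPKM of footprints with PBS, 18.8 and 17.3 at 6 h and 9.77 and 7.86 at 21 h (change -1.35 ± 0.18, adjusted p = 0.000672 in limma). Zfp395 overlapped with PBS at 6 h, with 58.3 and 52.5 against 49.9 and 52.8, and lay at 31.0 and 28.9 at 21 h (change -0.80 ± 0.11, adjusted p = 0.000908 in limma). Zfp608, the paralog of Zfp609, was at 5.72 and 7.90 with PBS, 4.00 and 4.18 at 6 h and 3.77 and 3.66 at 21 h (change -0.81 ± 0.23, adjusted p = 0.0245 in limma). Its libraries were already apart from PBS at 6 h, and its call was lost without the second PBS library (-0.58), the first 21 h library (-0.82), the second (-0.79) or with quantile normalization (-0.62). Zfp341, an activator of Stat3 expression, fell from 18 and 21 footprints to 4 and 4 (change -1.15 ± 0.34, adjusted p = 0.0272 in limma). Its call was lost without any one of the 4 libraries compared (-1.32 to -0.999) and with quantile normalization (-0.67). Zfp106, Zfp148, Zfp637 and Zfp91 were the other 4, with changes of -0.73, -0.64, -0.63 and -0.60.

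**Figure D3:**
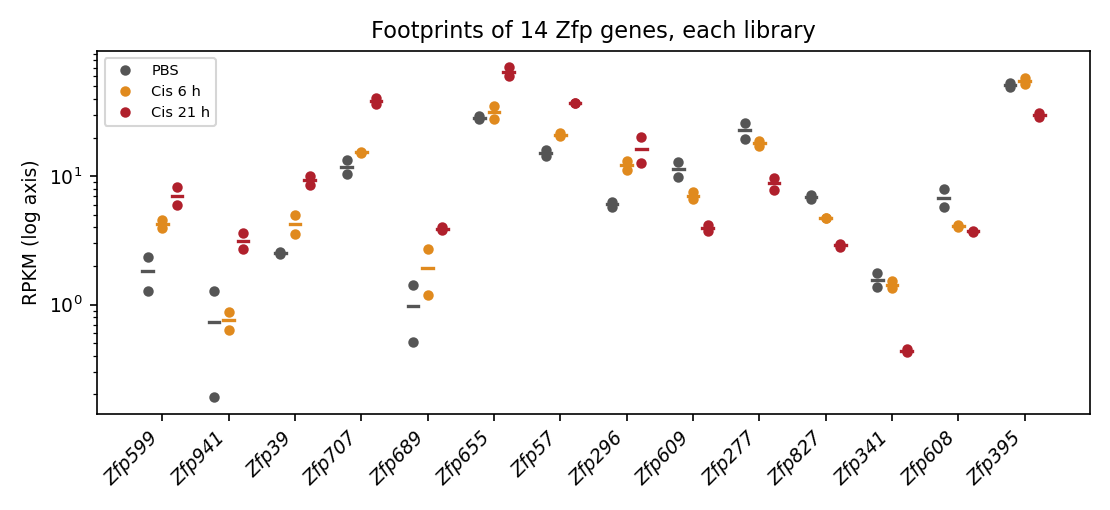
Footprint RPKM on a log axis of 14 Zfp genes in each library, grey for PBS, orange for Cis 6 h and red for Cis 21 h, with a short line at the mean of 2 libraries. For the 8 genes at the left the red points lie above the grey ones, as for Zfp707 (40.5 and 36.8 against 13.3 and 10.4), and for the 6 at the right below them, as for Zfp827 (2.96 and 2.84 against 7.14 and 6.69).

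Fewer Zfp genes passed the test in RNA-seq than in footprints. Of 177 members tested at 21 h, 25 were higher and 4 lower, or 14.1% and 2.26%, while over all transcripts 11.6% were higher and 12.2% lower. Both 21 h libraries lay above both PBS libraries for 85 members (33.3% of all transcripts) and below for 21 (30.7%). The median change was 0.33, against 0.02 over all transcripts. The share called higher was thus near the background, and the share called lower was below it. The count of 25 was smaller without any one of the 4 libraries compared (median change 0.25 to 0.33), as was that over all transcripts. Voom gave 39 higher and 8 lower, beside 1482 and 1525 of all 9459 transcripts. No filter gave 15 and 2, beside 821 and 956 of 14662, with the calls of Zfp277, Zfp609, Zfp707 and Zfp830 lost. The count of 4 was 2 without the second PBS library. Of the other 94 members, 1 had no RNA-seq read, and the 93 with reads had a median change of 0.11 in a fit without the filter.

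The largest called rises in RNA were those of Zfp296, Zfp948, Zfp959, Zfp655 and Zfp57. Zfp655 had the most reads behind it, with 4.65 and 6.47 RPKM with PBS, 5.77 and 4.12 at 6 h and 14.1 and 15.6 at 21 h. It rose by 1.28 ± 0.22 (adjusted p = 0.00355 in limma), and its footprints went from 27.8 and 29.5 to 70.5 and 60.2. Neither assay of Zfp655 was apart from PBS at 6 h. Zfp57, which keeps DNA methylation at imprinted regions, had 2.03 and 2.65 RPKM of RNA with PBS, 2.72 and 3.17 at 6 h and 5.95 and 7.37 at 21 h, a rise of 1.26 ± 0.24 (adjusted p = 0.00576 in limma). Its footprints were at 16.0 and 14.3, then 20.6 and 21.6, then 37.4 and 37.2, a rise of 1.24 ± 0.13 (adjusted p = 0.000189 in limma).

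Zfp296, a protein of pluripotent cells, had 0.265 and 1.13 RPKM of RNA with PBS (1 and 5 reads), 1.65 and 4.25 at 6 h and 3.65 and 4.38 at 21 h. The rise at 21 h was 1.94 ± 0.45 (adjusted p = 0.0131 in limma), and it was 1.40 without the first PBS library and 1.85 without the second 21 h library, with the call lost. Its footprints rested on more reads, at 6.33 and 5.79 RPKM with PBS, 13.3 and 11.1 at 6 h and 12.6 and 20.2 at 21 h (change 1.29 ± 0.23, adjusted p = 0.00281 in limma). In both assays Zfp296 was above PBS at 6 h, and the 6 h and 21 h libraries overlapped.

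Zfp948 had 3.68 and 1.30 RPKM of RNA with PBS and 9.23 and 8.30 at 21 h, a rise of 1.67 ± 0.36 (adjusted p = 0.0093 in limma), with the call lost without the first 21 h library (1.57). Zfp959 had 2 and 3 RNA reads with PBS, 2 and 2 at 6 h and 12 and 8 at 21 h. The ratio of 20 reads to 5, per counted read without the 3 abundant transcripts, was 4.72 (exact 95% interval 1.72 to 16.1, counting error only). Its call (1.43 ± 0.36, adjusted p = 0.0178 in limma) was lost without either PBS library (1.36 and 1.51).

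The 4 members with less RNA at 21 h were Zfp827, Zfp277, Zfp609 and Zfp395, and all 4 also lost footprints. RNA of Zfp827 was at 6.30 and 6.88 RPKM with PBS, 4.35 and 3.65 at 6 h and 2.09 and 1.59 at 21 h, a change of -1.67 ± 0.24 (adjusted p = 0.00155 in limma). Zfp395 was at 21.7 and 21.4, then 15.7 and 19.0, then 12.6 and 14.0 (change -0.76 ± 0.15, adjusted p = 0.00599 in limma). Zfp277 changed by -1.03 ± 0.29 (adjusted p = 0.0302 in limma) and Zfp609 by -0.77 ± 0.21 (adjusted p = 0.0253 in limma). Zfp277 was not past the threshold without either PBS library (-1.24 and -0.83) or the first 21 h library (-0.75), and Zfp609 without any one of the 4 libraries compared (-0.90 to -0.64).

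Both assays were tested for 176 members. Of these, 18 were called higher in both, 4 lower in both and 0 in opposite directions, beside 776, 925 and 21 of all 9312 transcripts. Of the 70 with more footprints, 63 had an RNA change above 0, with a median of 0.91 in footprints and 0.59 in RNA. Over all transcripts this held for 1692 of 1861, with medians of 0.68 and 0.54, so the share of members was near the background. Beside the genes already given, those higher in both included Zfp707, whose RNA went from 3.38 and 2.68 RPKM to 9.29 and 6.90 (change 1.20 ± 0.30, adjusted p = 0.0188 in limma, and lost without either PBS library, at 1.35 and 1.04, or the first 21 h library, at 0.96, and without the trend). For Zfp599 and Zfp39 the RNA changes were 0.57 ± 0.36 (adjusted p = 0.285 in limma) and 0.75 ± 0.40 (adjusted p = 0.209 in limma), and Zfp941 and Zfp689 were below the level filter in RNA.

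**Figure D4:**
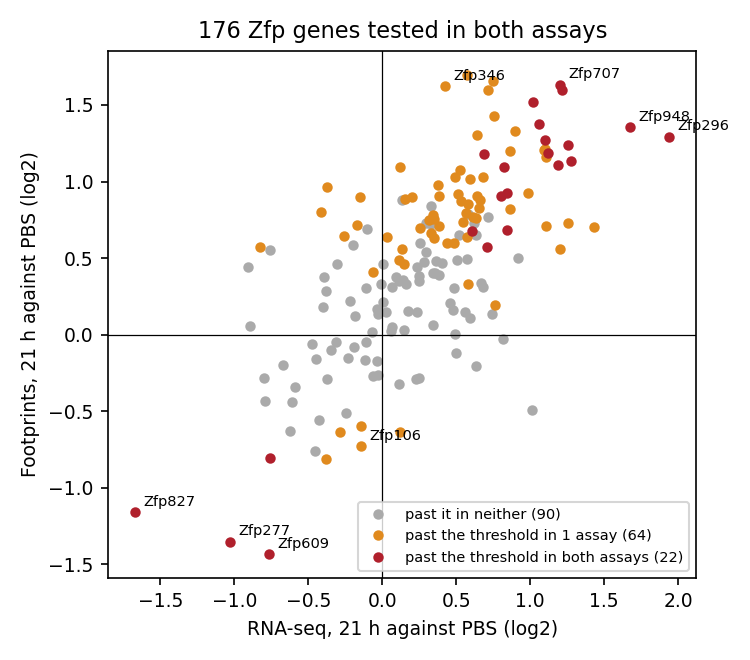
Change in footprints (vertical) against change in RNA-seq (horizontal) from PBS to 21 h of Cis on the log2 scale, 1 point for each of the 176 Zfp genes tested in both assays. The 22 red points passed the threshold in both assays, 18 at the upper right and 4 at the lower left, and the 64 orange points in 1 assay.

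TE passed the test for no Zfp gene. At 21 h, 0 of 176 members were called in either direction, where 0.258% of all 9312 transcripts were higher and 0.15% lower. At an unadjusted p under 0.05, 17 members were higher (5.41% of all transcripts) and 6 lower (7.29%). Voom called 0 higher and 1 lower, beside 74 and 78 of all transcripts. The median difference of the changes was 0.17, against -0.04 over all transcripts. At 6 h, 0 members were called (0.0% of all transcripts in each direction), with 4 higher (3.65%) and 3 lower (3.99%) at an unadjusted p under 0.05 and 0 by voom. Zfp958 had the lowest adjusted p (1.40 ± 0.32, adjusted p = 0.0963 in limma) and was chosen after its values were seen. Zfp106 came nearest among the other genes described here. Its RNA was at 36.6 and 41.2 RPKM with PBS and 36.5 and 37.9 at 21 h (change -0.14 ± 0.11, adjusted p = 0.401 in limma), while its footprints went from 29.3 and 30.9 to 17.7 and 19.2, and the TE difference was -0.58 ± 0.16 (adjusted p = 0.164 in limma, 95% interval -0.94 to -0.22 before adjustment).

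The changes differed between the time points for a part of the members. From 6 h to 21 h, 52 of 243 members gained footprints and 10 lost them, where 15.0% and 15.7% of all transcripts did. In RNA-seq 17 of 177 were higher and 2 lower, where 7.53% and 8.2% of all transcripts were. The footprint count was 26 without the first 6 h library, 28 without the second and 30 without the first 21 h library. The 10 with fewer footprints were 3 without either 6 h library or the second 21 h library. The RNA count was 3 and 4 without the first and the second 21 h library and 6 without either 6 h library, and the 2 with less RNA were 1 without any one library other than the first at 21 h. With RPKM as deposited 26 members were higher and 1 lower in RNA, beside 1234 and 514 of all transcripts in place of 712 and 776.

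A chosen list of 11 members linked to RNA or ribosomes was also followed, and it is not a count of all such members. In footprints at 21 h, 4 of them rose (Zfp207, Zfp346, Zfp622 and Zfp830) and 2 fell (Zfp106 and Zfp277), and in RNA 3 rose (Zfp330, Zfp622 and Zfp830) and 1 fell (Zfp277). Over all transcripts 18.9% rose and 20.2% fell in footprints, and 11.6% and 12.2% in RNA. Zfp622, which helps the large ribosomal subunit to mature, had 50.2 and 54.7 RPKM of footprints with PBS, 52.4 and 60.4 at 6 h and 88.7 and 84.2 at 21 h, a rise of 0.68 ± 0.11 (adjusted p = 0.00198 in limma). Its RNA went from 12.3 and 12.8 to 24.8 and 23.7, a rise of 0.84 ± 0.15 (adjusted p = 0.00357 in limma). Footprints of Zfp622 at 6 h overlapped with those of PBS.

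Zfp346 reached 25.8 and 34.9 RPKM of footprints at 21 h, a rise of 1.62 ± 0.17 (adjusted p = 0.000229 in limma), while its RNA changed by 0.42 ± 0.33 (adjusted p = 0.388 in limma). Zfp330, a nucleolar protein, had the opposite balance. Its footprints were at 109 and 127 RPKM with PBS and 139 and 136 at 21 h (change 0.19 ± 0.10, adjusted p = 0.18 in limma), and its RNA went from 14.3 and 18.1 to 31.0 and 27.7 (rise of 0.76 ± 0.15, adjusted p = 0.00696 in limma, lost without the first PBS library at 0.61). The TE differences of Zfp346 (1.20 ± 0.40, adjusted p = 0.252 in limma) and Zfp330 (-0.57 ± 0.19, adjusted p = 0.24 in limma) did not pass the test.

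Zfp830, a splicing factor, went from 40.9 and 49.8 RPKM of footprints to 72.0 and 77.0 (rise of 0.68 ± 0.13, adjusted p = 0.00335 in limma). Its RNA went from 8.42 and 6.93 to 13.0 and 12.3 (change 0.61 ± 0.19, adjusted p = 0.0429 in limma), a call lost without any one of the 4 libraries compared (0.46 to 0.75), with the replicate number as a block (0.61), with quantile normalization (0.56), without the trend (0.61), with voom (0.65) and without the filter (0.61). Zfp207 rose in footprints from 138 and 124 to 188 and 181 (0.46 ± 0.09, adjusted p = 0.00404 in limma), with an RNA change of 0.15 ± 0.12 (adjusted p = 0.391 in limma).

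Zfp598, the ubiquitin ligase that marks collided ribosomes, was at 14.3 and 11.3 RPKM of footprints with PBS, 14.9 and 20.0 at 6 h and 17.3 and 17.4 at 21 h, and its change of 0.40 ± 0.18 did not pass the test (adjusted p = 0.114 in limma). Zfp326, a splicing-linked protein, and Zfp638, which silences unintegrated retroviral DNA, changed by -0.28 ± 0.13 (adjusted p = 0.113 in limma) and 0.02 ± 0.13 (adjusted p = 0.908 in limma) in footprints. Zfp593, a factor of large-subunit export, had only 2 to 13 footprints per library.

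Of 25 further genes with a known role in gene regulation, 19 were tested members. At 21 h 7 had more footprints (Zfp24, Zfp57, Zfp217, Zfp281, Zfp384, Zfp410 and Zfp809) and 2 fewer (Zfp91 and Zfp148), where 18.9% and 20.2% of all transcripts were called, and in RNA only Zfp57 was called (11.6% of all transcripts were higher). The median change was 0.34 in footprints and 0.35 in RNA. Zfp410, the activator of Chd4, was at 8.17 and 7.78 RPKM with PBS, 7.13 and 8.68 at 6 h and 19.5 and 19.8 at 21 h, a rise of 1.21 ± 0.17 (adjusted p = 0.000822 in limma). Zfp24 was at 61.4 and 59.5 with PBS, 89.8 and 83.5 at 6 h and 97.5 and 117 at 21 h (0.78 ± 0.11, adjusted p = 0.000989 in limma). Of this pair Zfp24 was above PBS at 6 h already and Zfp410 was not. Zfp809, a KRAB protein that silences retroviruses, rose by 0.75 ± 0.20 (adjusted p = 0.0157 in limma). Among the 6 genes of highest RNA, Zfp664 gained footprints, from 11.0 and 12.6 RPKM to 27.0 and 21.9 (0.98 ± 0.16, adjusted p = 0.00191 in limma). Zfp91 lost them, from 31.2 and 35.4 to 26.1 and 19.2 (-0.60 ± 0.16, adjusted p = 0.0189 in limma, lost without the second PBS library at -0.49 or the second 21 h library at -0.37). Zfp706 did not pass the test (-0.08 ± 0.13, adjusted p = 0.661 in limma).

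Genes of the machinery through which KRAB proteins silence chromatin were called at shares near those of all transcripts (18.9% higher and 20.2% lower). Of 26 such genes in footprints at 21 h, 6 rose (Chd4, Dnmt1, Hdac1, Suv39h1, Suv39h2 and Uhrf1) and 4 fell (Cbx5, Dnmt3a, Ehmt1 and Ehmt2), with a median change of -0.08. Trim28, the cofactor that KRAB domains recruit, changed by 0.14 (adjusted p = 0.21 in limma). Among other zinc finger families, 9 of 15 tested Zscan and Zkscan genes rose and 0 fell (median 0.88), 5 of 34 Zbtb genes rose and 3 fell (median 0.20), 6 of 16 Klf and Sp genes rose and 2 fell (median 0.32), and 5 of 16 CCCH genes rose and 3 fell (median 0.18). These counts stand beside the same 18.9% and 20.2% of all transcripts, and the differences between these families and the Zfp genes were not tested.

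Gene length went with the direction of the Zfp changes. The median length of a member from first to last base was 17.3 kb, against 23.2 kb for all transcripts listed in the 6 footprint libraries. Of the 22 tested members of 50 kb or more, 0 gained footprints at 21 h and 6 lost them, while over all transcripts of that length 2.31% gained and 51.2% lost. Zfp106, Zfp148, Zfp277, Zfp608, Zfp609 and Zfp827, of 57.0 to 166 kb, were these 6. Of the 178 tested members of 10 to 50 kb, 68 gained and 3 lost, or 38.2% and 1.69%, beside 22.5% and 10.5% of all transcripts in that range. Of the 43 under 10 kb, 18 gained and 1 lost, or 41.9% and 2.33%, beside 28.1% and 7.95%. Within the 2 shorter ranges the share of members that gained footprints was thus above that of all transcripts, and among long genes the share that lost them was below it. In RNA at 21 h, 17 of 126 members of 10 to 50 kb were higher and 1 lower (14.6% and 4.95% of all transcripts). Under 10 kb the counts were 8 and 0 of 34 (15.5% and 7.21%). At 50 kb or more they were 0 and 3 of 17 (1.82% and 31.3%). At 10 to 50 kb the share higher in RNA, 13.5%, was thus not above that of all transcripts. These shares are given without a test.

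**Figure D5:**
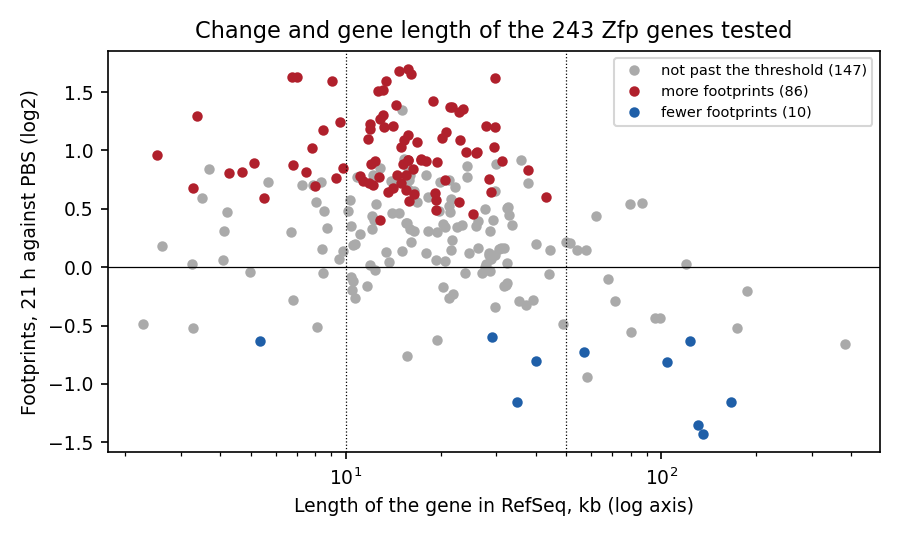
Change in footprints from PBS to 21 h of Cis on the log2 scale against the length of the gene in kb (log axis) for the 243 Zfp genes tested, red for the 86 with more footprints, blue for the 10 with fewer and grey for the other 147. Dotted lines mark 10 and 50 kb, and no red point lies to the right of 50 kb.

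Zfp genes beside another Zfp gene were next set against the rest. In RefSeq, 143 of the 271 members had a gene with a symbol that starts with Zfp as the next protein-coding gene on at least 1 side. Of the 126 of these that were tested, 53 gained footprints at 21 h and 1 lost them, with a median change of 0.64. Over all transcripts with such a neighbour 27.7% gained and 10.1% lost, with a median of 0.23. Of the 117 tested members without such a neighbour, 33 gained and 9 lost, with a median of 0.39, and over all transcripts without one 18.5% gained and 20.6% lost. The shares over all transcripts lay in the same order, but they include the members. Of the 328 tested transcripts with such a neighbour 126 were members, and of the 91 that gained footprints 53 were. The order over all transcripts is thus not independent of that of the members. In RNA the counts were 15 and 0 of 83 with a neighbour (14.4% and 6.82% of all transcripts), and 10 and 4 of 94 without (11.5% and 12.3%). The differences between the sets were not tested. How the authors' counting treated reads shared by near-identical Zfp copies is not given in the sources used here, so the split of reads between close relatives is uncertain, and reads of overlapping or antisense genes cannot be separated.

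Promoters of 229 of the 271 members were found in RefSeq (GRCm38.p6), as windows from 250 bases before to 50 after the start. CCAAT, the letters bound by NF-Y, was present on either strand in 52.0% of the members, in 43.6% of the transcripts listed in the 6 footprint libraries and in 41.1% of all promoters. It was in 43 of the 72 with more footprints at 21 h (59.7%) and in 3 of the 7 with fewer. GGGCGG, the letters of an Sp1 site, was in 49.3% of the members, in 70.3% of the listed transcripts and in 38.2% of all promoters. It was in 32 of the 72 with more footprints (44.4%) and in 4 of the 7 with fewer. AAGATGGC, the core of a YY1 site, was in 6.55% of the members and 5.68% of the listed transcripts. It was in 8 of the 72 with more footprints (11.1%) and in 1 of the 7 with fewer. The other 5 motifs searched, on both strands, were TGACGTCA (4.37% of the members and 3.66% of the listed transcripts), TGANTCA (4.80% and 6.36%), CACGTG (8.30% and 12.0%), GCGCATGC (6.99% and 6.32%) and CCGGAAGT (12.7% and 9.97%), and none of the motifs contains another. In the order of these 5 motifs, their shares among the 72 with more footprints were 1.39%, 6.94%, 6.94%, 6.94% and 9.72%. Each was in 0 of the 7 with fewer. A match is a description of the letters and not of binding.

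The 250 bases before the start are shown for 4 members called in both assays, chosen after their values were seen, to set a gene with repeated CCAAT letters beside others with GGGCGG. Zfp869 had 13.7 and 14.6 RPKM of footprints with PBS, 18.0 and 17.5 at 6 h and 34.9 and 32.5 at 21 h, a rise of 1.19 ± 0.13 (adjusted p = 0.000282 in limma), and its RNA rose by 1.12 ± 0.24 (adjusted p = 0.00863 in limma). It has 4 matches to CCAAT and 0 to GGGCGG. Zfp655 has 0 and 1, Zfp296 has 0 and 3, and Zfp277, which fell, has 2 and 3. Sequences are from RefSeq on GRCm38.p6, 5′ to 3′ on the strand of the gene, with both motifs on either strand in capitals. They lie at chr8:69716903-69717152 (minus strand), chr5:145231492-145231741 (plus), chr7:19577037-19577286 (plus) and chr12:40445791-40446040 (minus), just upstream of each gene.
Zfp869: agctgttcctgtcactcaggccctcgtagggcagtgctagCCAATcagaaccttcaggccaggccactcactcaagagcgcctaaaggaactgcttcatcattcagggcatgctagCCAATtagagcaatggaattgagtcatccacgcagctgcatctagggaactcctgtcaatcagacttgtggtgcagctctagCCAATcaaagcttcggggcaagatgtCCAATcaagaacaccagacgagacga
Zfp655: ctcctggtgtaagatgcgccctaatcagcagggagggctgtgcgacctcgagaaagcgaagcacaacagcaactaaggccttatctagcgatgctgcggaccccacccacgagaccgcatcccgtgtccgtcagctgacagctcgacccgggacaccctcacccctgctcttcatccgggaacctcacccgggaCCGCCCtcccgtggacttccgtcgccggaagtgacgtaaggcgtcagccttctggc
Zfp296: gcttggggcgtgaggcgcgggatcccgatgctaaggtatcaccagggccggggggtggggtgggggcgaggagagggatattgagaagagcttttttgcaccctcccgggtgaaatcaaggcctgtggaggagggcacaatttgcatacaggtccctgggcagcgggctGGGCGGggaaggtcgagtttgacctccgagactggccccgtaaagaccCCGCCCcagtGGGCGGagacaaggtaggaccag
Zfp277: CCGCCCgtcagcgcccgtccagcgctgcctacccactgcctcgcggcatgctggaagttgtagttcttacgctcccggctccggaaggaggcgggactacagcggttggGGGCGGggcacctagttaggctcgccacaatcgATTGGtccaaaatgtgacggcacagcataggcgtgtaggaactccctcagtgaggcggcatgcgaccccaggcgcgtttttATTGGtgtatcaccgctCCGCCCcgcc

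No motif was shared by the 3 risers in these windows, and the 3 matches to GGGCGG in Zfp296 and in Zfp277 stand upstream of genes that moved in opposite directions.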

How the data were processed

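KPC cells were profiled by ribosome footprints and by RNA-seq, with 2 libraries per assay and group. The labels gave the groups and replicate numbers, and the study's methods gave the dose. Per gene and library, the authors deposited the RPKM of 1 transcript, with the coding length as divisor for footprints and the transcript length for RNA-seq. The submitters' processing notes name cutadapt, STAR and GRCm39, and the counting tool is not given in the sources used here. Multiplying RPKM by length gave whole reads for 100% of the values (tolerance 0.01), from which depth was taken. The exact interval for a ratio of pooled reads covers counting error only and not the spread between libraries. Transcripts absent from a library were set to 0.

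Median-of-ratios factors, computed for each assay, scaled the RPKM. limma 3.58.1 (R 4.3.3; lmFit, eBayes with a trend) was run on log2(RPKM + 0.5) for transcripts averaging 1 or more, with the 3 groups in a single model. All tests are two-sided, with Benjamini-Hochberg adjustment over 10390 (footprints), 9459 (RNA-seq) or 9312 (TE) transcripts. TE is the interaction of assay and treatment over 12 libraries. The smallest p that an exact permutation test allows for 2 libraries against 2 is 0.333. Without the factors the median of all transcripts moved most for RNA-seq from 6 h to 21 h, to 0.15, where the factors gave 0.01.

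Members and gene lists were chosen with earlier results of these data known. Named genes were the 5 largest called rises and falls at each time and assay whose libraries did not overlap with PBS. Also named were the 6 with the highest PBS RNA and up to 3 TE calls per direction. A chosen list of 11 members linked to RNA or ribosomes was added. Gene length, neighbours and promoters came from RefSeq (GRCm38.p6) by symbol (271 of 271 matched, promoters 229), and no position was carried to GRCm39. The tests were also run on simulated reads with an assumed spread between libraries. This does not show how they perform for Zfp genes with few reads. The alternatives changed the pseudocount (0.1 or 1), the filter (none, or 5), the scaling (RPKM as deposited, quantile), the trend, the tool (voom on the recovered reads), the groups in the model, the threshold (adjusted p under 0.1, or a log2 change above 1 as well) and the members. They also took the replicate number as a block, took 3 abundant transcripts out of RNA-seq, and left out each library. Protein sequences were not analysed here, and 1 part of the genotype of the line is not reported here. Files were read with Python 3.11.15.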

Additional observations from a re-analysis of the deposited data

Results flagged for a closer look

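The change from PBS was larger or smaller at 21 h than at 6 h for several named members, by the limma test of 21 h against 6 h itself. Values are the difference of the changes on the log2 scale. Part of these members were named for their change from PBS at 21 h. The same 21 h libraries enter this test, so its results are not independent of that choice. From 6 h to 21 h, 15.0% of all transcripts were called higher and 15.7% lower in footprints. In RNA these shares were 7.53% and 8.2%. The change at 21 h less that at 6 h was below 0 in footprints for Zfp593 (-1.62), Zfp341 (-1.05), Zfp277 (-1.02), Zfp395 (-0.90), Zfp609 (-0.77), Zfp827 (-0.64), Zfp91 (-0.58) and Zfp106 (-0.43). It was above 0 for Zfp207 (0.35), Zfp622 (0.59), Zfp830 (0.69), Zfp57 (0.79), Zfp346 (0.84), Zfp948 (0.91), Zfp655 (1.02), Zfp39 (1.04), Zfp707 (1.29) and Zfp941 (1.52). In RNA it was below 0 for Zfp827 (-1.07) and Zfp395 (-0.52), and above 0 for Zfp330 (0.56), Zfp622 (0.69), Zfp57 (0.92), Zfp948 (1.31), Zfp655 (1.37) and Zfp959 (1.39). Adjusted p ran from 0.000717 to 0.048 in footprints and from 0.00428 to 0.042 in RNA. Zfp593, the lowest of these values in footprints, rests on few reads, with 4 and 10 reads with PBS, 13 and 12 at 6 h and 5 and 2 at 21 h. Groups held 2 libraries, too few to test a single library as an outlier.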

How the results depend on the processing

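Of 884 repeats of the 55 tests of named members, 827 kept direction and side of the threshold, 44 lost the call, 6 gained it and 7 changed sign. The sign changes were in members that did not pass the test: leaving out each library gave -0.28 to 0.11 for Zfp706 in footprints, -0.020 to 0.060 for Zfp638 in footprints, -0.12 to 0.25 for Zfp638 in RNA and -1.15 to 0.16 for Zfp593 in footprints. Counts over all transcripts moved with the settings too, in footprints at 6 h from 109 higher and 103 lower to 454 and 822 with voom. In RNA at 21 h they moved from 1094 and 1154 to 1482 and 1525 with voom. Counts of members moved by over 1.5 times as follows, and the cause was not tested. Footprints at 6 h gave 1 higher with a pseudocount of 1, 3 with a mean of at least 5, 1 as deposited, 2 with quantile normalization, 8 (and 7 lower) with voom, 4 with only the groups compared and 7 at an adjusted p under 0.1. Footprints at 21 h gave 37 higher and 4 lower past a log2 change of 1. Footprints from 6 h to 21 h gave 5 lower without the filter, 6 with a mean of at least 5, 6 with quantile normalization, 79 higher at an adjusted p under 0.1, and 18 higher and 4 lower past a log2 change of 1. RNA at 6 h gave 1 lower with voom. RNA at 21 h gave 15 higher and 2 lower without the filter, 14 higher with a mean of at least 5, 7 lower without the trend, 39 and 8 with voom, 40 and 9 at an adjusted p under 0.1, and 15 and 2 past a log2 change of 1. RNA from 6 h to 21 h gave 6 and 1 without the filter, 6 and 1 with a mean of at least 5, 26 and 1 as deposited, 1 lower without the trend, 5 with voom, 1 with only the groups compared, 1 with the replicate block, and 10 and 1 past a log2 change of 1. TE at 21 h gave 1 lower with voom and 1 higher at an adjusted p under 0.1. Leaving out each library gave 0 to 4 higher in footprints at 6 h, 49 to 81 higher and 6 to 11 lower at 21 h, and 26 to 47 and 3 to 8 from 6 h to 21 h, and in RNA 9 to 30 and 2 to 5 at 21 h and 3 to 13 and 1 to 3 from 6 h to 21 h. A lone library left in a group is assumed to vary like the others. Deviations of libraries with the same replicate number had correlations of -0.05 to 0.08 between groups, which cannot tell whether the samples were paired. With the replicate block the counts were 79 and 11 in footprints and 24 and 5 in RNA at 21 h. The 11 to 17 reads of a median member per RNA-seq library limit what RNA-seq can show.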
